A study of Mus musculus with 10 samples.

Results

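A set of 10 G protein-coupled receptors of the pancreatic islet was examined, chosen by name as receptors for incretins and glucagon (Glp1r, Gipr, Gcgr), nutrients (Ffar1, Gpr119, Casr), autonomic transmitters (Adra2a, Chrm3) and inhibitory peptides (Sstr3, Galr1). The choice was made with earlier results of these data known. All 10 of the 10 had a row in the deposited table of 27665 genes, and all 10 were among the 15104 genes with enough reads to be tested. RNA was sequenced from isolated islets of 5 male C57BL/6J mice on western diet and 5 male C57BL/6J mice on standard chow. By the labels the mice of both groups were 8 to 10 weeks of age, each diet lasted 4 weeks, and each library is a separate mouse with no transgene or knockout named. Cage 4 held 4 of the western diet mice, cage 2 held the fifth, and cage 3 held all 5 chow mice, so diet and cage cannot be told apart. The comparison asks how islet transcripts differed after western diet.

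Islet hormone release is set by glucose and tuned by receptors that pass signals to G proteins. Receptors coupled to Gs raise cyclic AMP through adenylyl cyclase and amplify insulin secretion, receptors coupled to Gq act through phospholipase C, IP3 and calcium, and receptors coupled to Gi lower cyclic AMP and restrain secretion. GLP-1 and GIP act on the beta cell through Gs, fatty acids and acetylcholine through Gq, and adrenaline, somatostatin and galanin through Gi.

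Of the 10 receptor transcripts, Sstr3 was higher in western diet islets, and Chrm3 and Casr were lower. Sstr3, a receptor for somatostatin that sits on the primary cilium of beta cells, stood at 1.21 times its chow level. Chrm3, the M3 muscarinic acetylcholine receptor through which vagal input amplifies insulin secretion, stood at 0.727 times its chow level. Casr, the calcium-sensing receptor, stood at 0.792 times its chow level. The incretin receptors Glp1r and Gipr, the fatty acid receptor Ffar1 and the galanin receptor Galr1 had lower means on western diet but missed the threshold for a call, which was an adjusted p under 0.05 in edgeR. DESeq2 called Glp1r, Gipr and Galr1 lower, and limma-voom called Glp1r lower. Gcgr, Gpr119 and Adra2a had 95% intervals that included no change.

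The bases upstream of the start are shown for the 3 receptors that were called and for Glp1r, the member with the highest level per length. They are from RefSeq on GRCm38.p6, read 5′ to 3′ on the strand of the gene, and stop before the first base that lies in an exon of the gene in GENCODE M21. Capitals mark matches, on either strand, to the GC box GGGCGG or the CCAAT box. Chrm3 is at chr13:10360848-10361053 on the minus strand, Casr at chr16:36562142-36562384 on the minus strand, Glp1r at chr17:30901617-30901816 on the plus strand, and Sstr3 at chr15:78541407-78541656 on the minus strand. The Sstr3 bases precede the downstream of its RefSeq starts, so they lie within the span of the gene, between annotated exons, and not upstream of it.
Chrm3: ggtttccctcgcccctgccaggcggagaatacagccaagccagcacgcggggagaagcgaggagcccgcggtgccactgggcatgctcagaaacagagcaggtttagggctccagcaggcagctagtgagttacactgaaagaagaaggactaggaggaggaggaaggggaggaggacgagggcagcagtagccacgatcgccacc
Casr: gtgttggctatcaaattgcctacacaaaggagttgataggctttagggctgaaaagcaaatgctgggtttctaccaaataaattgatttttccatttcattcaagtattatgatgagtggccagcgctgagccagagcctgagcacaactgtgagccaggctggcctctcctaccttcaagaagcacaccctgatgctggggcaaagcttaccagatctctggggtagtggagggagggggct
Sstr3: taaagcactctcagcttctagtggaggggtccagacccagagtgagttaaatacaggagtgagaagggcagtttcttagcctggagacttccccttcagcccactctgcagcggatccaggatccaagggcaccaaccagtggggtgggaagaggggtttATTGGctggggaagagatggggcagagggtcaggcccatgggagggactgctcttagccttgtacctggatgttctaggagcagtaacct
Glp1r: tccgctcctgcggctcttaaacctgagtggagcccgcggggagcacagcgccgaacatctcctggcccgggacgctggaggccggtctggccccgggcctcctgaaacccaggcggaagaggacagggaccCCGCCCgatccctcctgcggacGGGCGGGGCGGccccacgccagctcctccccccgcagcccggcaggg

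The 250 bases before each RefSeq start were searched on both strands for 5 motifs. Among 32851 promoter windows of the same length, the cyclic AMP response element TGACGTCA was found in 1.55%, and its shorter form TGACG, which every longer match also holds, in 17.8%. The GC box was found in 32.7%, the CCAAT box, searched by the letters in its name, in 33.8%, and the TATA box, searched as TATAAA, in 12.4%. Of the members, 8 were searched, and Gipr and Galr1 were not. None of the 8 held the full response element. Glp1r held the GC box at 119, 97 and 92 bases before its start, and Gcgr at 77 and 51 bases. Adra2a held the TATA box at 29 bases, the shorter element at 69 bases and the GC box at 102 bases before its start, and Gpr119 held the shorter element at 168 bases. The window of Adra2a lies within bases annotated as exon of the gene in GENCODE M21, and not upstream of the gene. Sstr3 has more than 1 start in RefSeq: the window of the downstream start, shown above, held the CCAAT box at 90 bases before that start, and the window of the upstream start, which lies inside the gene's first annotated exon, held the shorter element at 9 bases. None of the 5 motifs was found in the windows of Chrm3, Casr or Ffar1. The windows of Chrm3, Casr and Sstr3 had a GC content of 61.2%, 48.8% and 55.6%, against a median of 52.4% over all windows, and that of Glp1r had 73.2%.

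The receptors differ in gene structure. Glp1r, Gipr and Gcgr, which belong to the class B family of peptide hormone receptors, each have 13 coding segments in GENCODE M21. The coding sequence of Ffar1, Gpr119, Adra2a, Chrm3 and Sstr3 lies in 1 segment, that of Galr1 in 3 and that of Casr in 6. No exon of a member overlaps an exon of another annotated gene. Antisense or other non-coding genes lie within the spans of Glp1r, Gcgr, Chrm3 and Casr, and no source used here says whether reads were counted by strand. The deposited model of Glp1r is 1480 bases long, against 5811 bases of exon in GENCODE M21 of which 1389 are coding. Whether the bases of the deposited model are the coding ones was not checked.

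Levels were compared between receptors with the deposited FPKM, which is scaled by model length and library size. In western diet islets Glp1r led with 126 ± 19.2 FPKM (SD, n = 5), followed by Sstr3 with 93.3 ± 3.74 FPKM and Adra2a with 90.4 ± 9.39 FPKM. Gipr with 38.0 ± 5.02 FPKM and Ffar1 with 35.5 ± 4.94 FPKM came next, then Casr with 22.7 ± 2.04 FPKM. Gcgr with 16.2 ± 1.31 FPKM, Galr1 with 15.6 ± 1.01 FPKM, Chrm3 with 9.29 ± 0.884 FPKM and Gpr119 with 7.94 ± 1.39 FPKM closed the order. The place of Glp1r rests on the deposited model of 1480 bases, and its place with the longer GENCODE model was not tested. Ranges over the 5 western diet libraries overlapped between Sstr3 and Adra2a, Gipr and Ffar1, Gcgr and Galr1, and Chrm3 and Gpr119, so those neighbours are not separated by their spread.

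In chow islets Glp1r was again at the top with 154 ± 11.7 FPKM, and Adra2a with 98.1 ± 11.2 FPKM stood above Sstr3 with 77.5 ± 6.73 FPKM with no overlap between their libraries. Gipr had 47.0 ± 6.66 FPKM, Ffar1 41.0 ± 3.64 FPKM and Casr 28.7 ± 1.19 FPKM. Galr1 had 18.2 ± 1.76 FPKM, Gcgr 14.9 ± 1.75 FPKM, Chrm3 12.8 ± 1.04 FPKM and Gpr119 7.64 ± 0.420 FPKM. Neighbours whose ranges overlapped in chow were Gipr and Ffar1, Galr1 and Gcgr, and Gcgr and Chrm3. The order thus had 2 changes of place between the diets, Sstr3 with Adra2a and Gcgr with Galr1, and no test was made of the order. The deposited model of Adra2a is 3801 bases long, against 4832 bases of exon in GENCODE M21. Its place relative to Sstr3 rests on that model and was not tested with the longer one. The ranges of Gcgr and Galr1 overlapped in both diets. Even Gpr119, at the bottom, stood above 67.2% of all tested genes in western diet islets and above 66.4% in chow islets, and Glp1r stood above 98.8% in western diet islets and above 99.1% in chow islets.

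**Figure D1:**
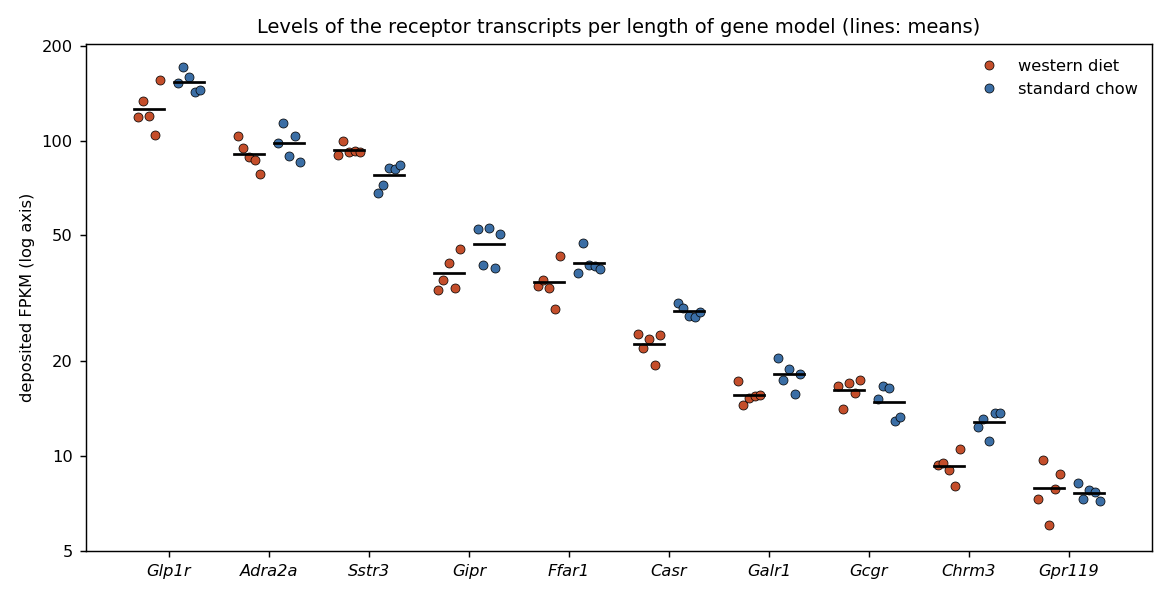
Deposited FPKM of the 10 receptors in each library, on a log axis, with western diet points left of chow points and lines at the means. Glp1r is at the top in both diets, Gpr119 has the lowest mean in both, and the western diet points of Sstr3 lie above its chow points.

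Changes between diets were tested on the read counts with edgeR's quasi-likelihood test, adjusted over all 15104 genes by Benjamini-Hochberg, and levels below are CPM, counts scaled to library size with TMM factors. Total counts were 16532518 to 23902681 per library, and a member had between 229 counts (Gpr119) and 9506 counts (Sstr3) in a library. Of the 10 receptors, 1 was called higher and 2 lower on western diet. Over all genes tested, 10.8% were called, 5.27% higher and 5.5% lower. For 3 of the 10 receptors every western diet library lay on one side of every chow library, against 8.85% of all genes. An unadjusted p under 0.05 was found for 7 of the 10, against 26.9% of all genes. The median log2 fold change was -0.21 over the 10 receptors and 0.01 over all genes, and 7 of the 10 lay below 0, against 49.0% of all genes. The receptors were chosen with earlier results of these data known. Each also stood above at least 66.4% of tested genes in mean FPKM. These shares are therefore a description and not a test of the set.

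**Figure D2:**
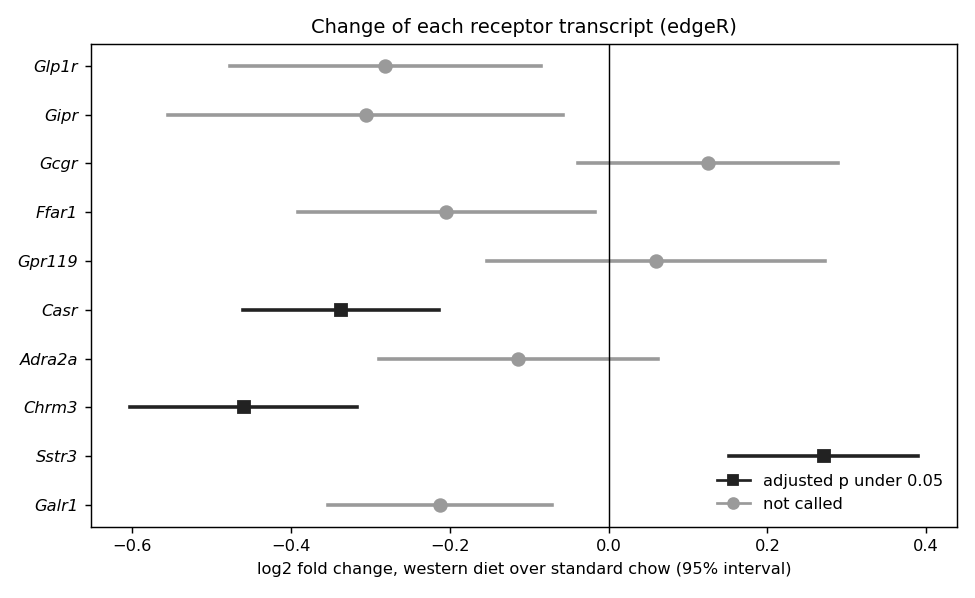
Log2 fold change of each receptor, western diet over standard chow, with its 95% interval from edgeR. Sstr3 lies to the right of 0 and Chrm3 and Casr to the left as called transcripts. Of the 7 others, 4 have intervals that leave out 0 but do not pass after adjustment.

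In bulk islet RNA, fewer cells of a type and less RNA per cell cannot be told apart. The summed level of 8 beta cell markers was 238117 to 272908 CPM in western diet islets and 228432 to 264341 CPM in chow islets, with Iapp called higher and Slc2a2 lower. Ins2, Ins1 and Iapp make up most of that sum, and the other 5 markers all had lower means on western diet. Their log2 fold changes were -0.54 for Slc2a2, -0.24 for Mafa, -0.23 for Pdx1, -0.14 for Nkx6-1 and -0.08 for Ucn3, of which only Slc2a2 was called. Sums of alpha cell markers (5 genes, Ttr called higher), delta cell markers (4 genes, none called) and acinar markers (7 genes, none called) overlapped between the diets as well, with acinar sums of 699 to 5001 CPM in western diet islets and 589 to 2498 CPM in chow islets. Sums did not overlap for 5 endothelial markers, at 285 to 339 CPM in western diet islets and 344 to 390 CPM in chow islets. Of these 5, only Kdr was called, as lower. Their log2 fold changes differed, with -0.29 for Cdh5, -0.28 for Kdr, -0.22 for Esm1, -0.05 for Pecam1 and 0.05 for Plvap. Sums did not overlap either for 7 immediate early and heat shock genes (Jun, Fos, Egr1, Dusp1, Atf3, Hspa1a and Hspa1b). These were at 6098 to 7544 CPM in western diet islets and 11110 to 12596 CPM in chow islets, and all 7 were called lower. Of the other marker genes, Krt19 and Muc1 of 5 tested duct genes, C1qa of 5 macrophage genes and Pdgfrb of 5 stellate and mesenchymal genes were called lower. Krt19 and Muc1 had few reads, with means of 0.570 and 1.51 CPM in western diet islets and 3.58 and 2.99 CPM in chow islets. Not called, with log2 fold changes above 0, were Krt7 (0.06), Spp1 (0.04), Lyz2 (0.40) and Acta2 (0.31). The remaining tested duct, macrophage and mesenchymal genes had lower means on western diet and were not called. No PP cell or Schwann cell gene was called. No marker of these lists was at 0 in every library. The part of these genes in the receptor results was not tested.

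Among the incretin and glucagon receptors, Glp1r (ENSMUSG00000024027, chr17:30901867-30936510, plus strand), the target of GLP-1 and of the GLP-1 drugs, was at 175, 197, 179 and 155 CPM in the 4 western diet mice of cage 4 and at 229 CPM in the western diet mouse of cage 2. In the chow mice it was at 225, 253, 235, 211 and 214 CPM. The 4 mice of cage 4 lay below every chow mouse, while the mouse of cage 2 lay within the chow range. Glp1r averaged 187 ± 28.1 CPM in western diet islets and 227 ± 17.2 CPM in chow islets (SD, n = 5 each). This gave a log2 fold change of -0.28 ± 0.09 (SE), with an interval of -0.48 to -0.09 and an edgeR adjusted p of 0.0657. Without the western diet mouse of cage 2 the log2 fold change was -0.36, with an edgeR adjusted p of 0.00328.

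Gipr (ENSMUSG00000030406, chr7:19156061-19166127, minus strand), the receptor for GIP, was at 117, 125, 144 and 119 CPM in the western diet mice of cage 4 and 157 CPM in that of cage 2, against 183, 140, 183, 137 and 176 CPM in chow mice. Here 3 of the 5 western diet mice lay below every chow mouse, and the chow libraries fell into a pair at 137 and 140 CPM and 3 at 176 to 183 CPM. The log2 fold change was -0.31 ± 0.11, with an interval of -0.55 to -0.06 and an edgeR adjusted p of 0.110. Without the western diet mouse of cage 2 it was -0.37, with an edgeR adjusted p of 0.039.

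Gcgr (ENSMUSG00000025127, chr11:120530699-120538986, plus strand), the receptor through which glucagon from alpha cells acts on beta cells, was at 43.5, 36.8, 45.0, 41.5 and 45.5 CPM in western diet mice and 39.7, 43.6, 43.1, 33.9 and 34.7 CPM in chow mice. The groups overlapped over most of their range. Its log2 fold change of 0.12 ± 0.08 had an interval of -0.04 to 0.29 and an edgeR adjusted p of 0.321. None of these 3 class B receptors was called by edgeR, while 2 of the 3 had an unadjusted p under 0.05, DESeq2 called 2 lower and limma-voom 1. Over all genes, DESeq2 called 15.2% and limma-voom 9.78%.

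Among the nutrient receptors, Casr (ENSMUSG00000051980, chr16:36493696-36562141, minus strand), which senses extracellular calcium and amino acids, was at 115, 103, 112 and 92.1 CPM in the western diet mice of cage 4 and 114 CPM in that of cage 2. In chow mice it was at 144, 138, 131, 130 and 135 CPM. Every western diet library lay below every chow library, with a gap between 115 and 130 CPM. Casr averaged 107 ± 9.65 CPM in western diet islets and 136 ± 5.73 CPM in chow islets, a log2 fold change of -0.34 ± 0.06 with an interval of -0.46 to -0.21 and an edgeR adjusted p of 0.00195. Leaving out any 1 mouse gave -0.36 to -0.29, called each time.

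Ffar1 (ENSMUSG00000044453, chr7:30857390-30861564, minus strand), also known as GPR40, binds long-chain fatty acids and couples to Gq. It was at 145, 151, 144 and 123 CPM in the western diet mice of cage 4 and 180 CPM in that of cage 2, against 159, 197, 168, 167 and 164 CPM in chow mice. All 4 mice of cage 4 lay below every chow mouse, and the mouse of cage 2 lay above 4 of the 5 chow mice. The highest chow library, at 197 CPM, stood apart from the other chow libraries at 159 to 168 CPM. Ffar1 had a log2 fold change of -0.20 ± 0.09, with an interval of -0.39 to -0.02 and an edgeR adjusted p of 0.149. Without the western diet mouse of cage 2 it was -0.28, with an edgeR adjusted p of 0.0145. Ffar1 lies 1212 bases from Ffar3 on the same strand, a receptor for short-chain fatty acids.

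Gpr119 (ENSMUSG00000051209, chrX:48667979-48674478, minus strand), a Gs-coupled receptor for fatty acid derivatives, was at 16.5, 22.0, 13.9, 17.9 and 19.9 CPM in western diet mice and 18.7, 16.5, 17.7, 17.5 and 16.3 CPM in chow mice. The western diet mice spread on both sides of the chow mice. The log2 fold change of 0.06 ± 0.10 had an interval of -0.15 to 0.27, with an edgeR adjusted p of 0.755. The 3 nutrient receptors therefore differed in outcome, with 1 called lower, 1 lower in its mean but not called, and 1 with means of 18.04 ± 3.10 CPM on western diet and 17.3 ± 0.969 CPM on chow.

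**Figure D3:**
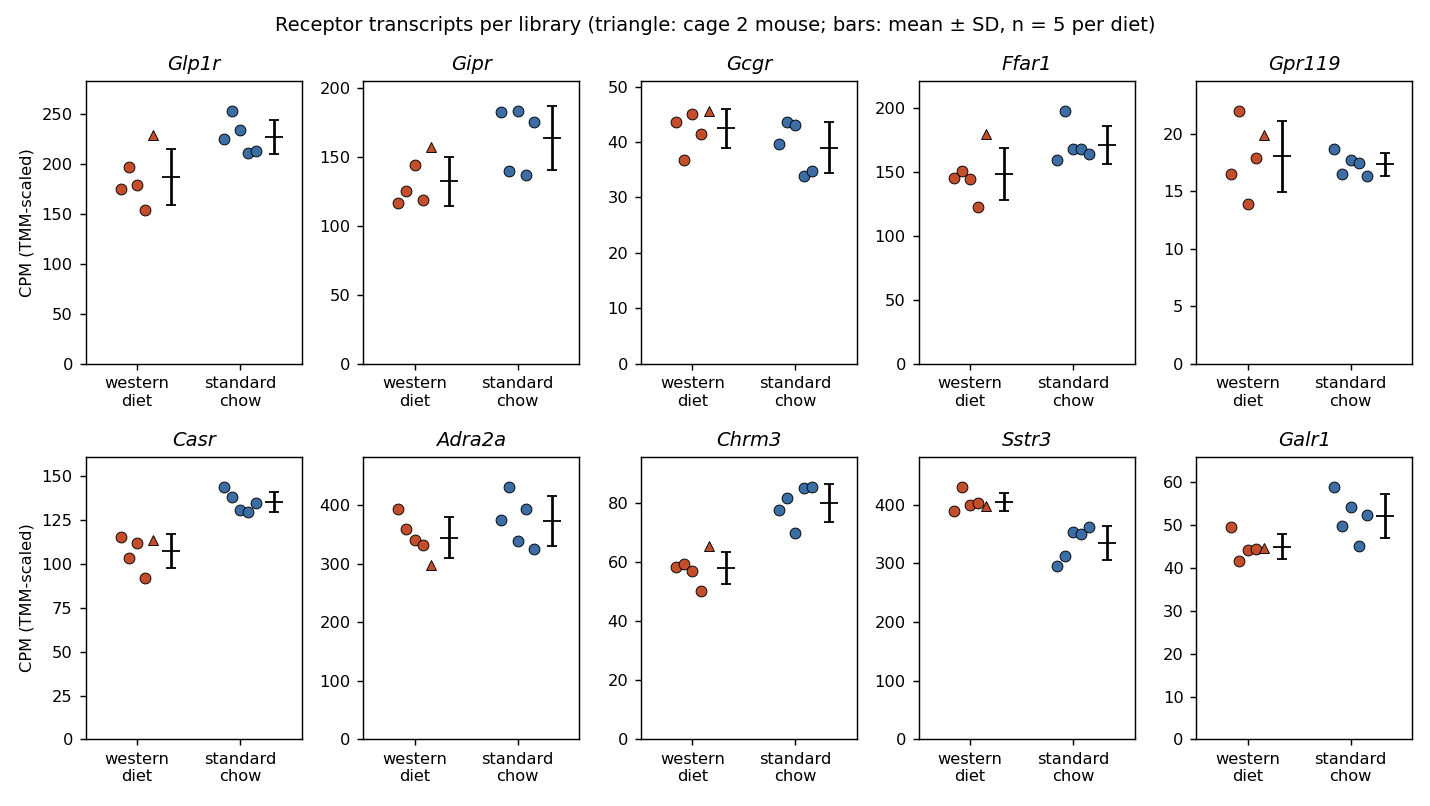
CPM of the 10 receptors in each library, western diet left of standard chow, with triangles for the western diet mouse of cage 2 and bars for the mean ± SD of 5 mice. The diets do not overlap for Casr, Chrm3 and Sstr3, and the triangle is the highest western diet point for Glp1r, Gipr, Gcgr, Ffar1 and Chrm3.

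Among the autonomic receptors, Chrm3 (ENSMUSG00000046159, chr13:9875486-10360847, minus strand) was at 58.6, 59.3, 57.1 and 50.4 CPM in the western diet mice of cage 4 and 65.6 CPM in that of cage 2. In chow mice it was at 77.6, 81.9, 69.9, 85.3 and 85.5 CPM. The highest western diet library, again the mouse of cage 2, lay below the lowest chow library. Chrm3 averaged 58.2 ± 5.43 CPM in western diet islets and 80.0 ± 6.51 CPM in chow islets. The log2 fold change of -0.46 ± 0.07, with an interval of -0.60 to -0.32 and an edgeR adjusted p of 0.000633, was the largest in size among the 10 receptors. Leaving out each mouse in turn gave -0.51 to -0.42, called each time.

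Adra2a (ENSMUSG00000033717, chr19:54045182-54048982, plus strand), the alpha-2A adrenergic receptor through which adrenaline and noradrenaline restrain insulin secretion, was at 394, 359, 340 and 332 CPM in the western diet mice of cage 4 and 298 CPM in that of cage 2. In chow mice it was at 375, 431, 339, 394 and 325 CPM. The groups overlapped, and the mouse of cage 2, which was highest among western diet mice for Glp1r, Gipr, Gcgr, Ffar1 and Chrm3, was the lowest of them here. Its log2 fold change was -0.11 ± 0.08, with an interval of -0.29 to 0.06 and an edgeR adjusted p of 0.404.

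Among the receptors for inhibitory peptides, Sstr3 (ENSMUSG00000044933, chr15:78537008-78544685, minus strand) was at 390, 430, 400 and 402 CPM in the western diet mice of cage 4 and 398 CPM in that of cage 2. In chow mice it was at 296, 312, 353, 350 and 362 CPM. All 5 western diet libraries lay above all 5 chow libraries, and the chow libraries were spread more widely. Sstr3 averaged 404 ± 15.3 CPM in western diet islets and 335 ± 28.9 CPM in chow islets, a log2 fold change of 0.27 ± 0.06 with an interval of 0.15 to 0.39 and an edgeR adjusted p of 0.00623. It ranged from 0.22 to 0.30 with each mouse left out in turn and was called each time. The transcript of its ligand, Sst, averaged 2085 ± 119 CPM in western diet islets and 2091 ± 200.1 CPM in chow islets, and Sst was not called.

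Galr1 (ENSMUSG00000024553, chr18:82392496-82406777, minus strand), a Gi-coupled receptor for galanin, was at 49.6, 41.6, 44.3 and 44.5 CPM in the western diet mice of cage 4 and 44.8 CPM in that of cage 2, against 58.9, 49.9, 54.3, 45.2 and 52.3 CPM in chow mice. Of the western diet mice 4 lay below every chow mouse, and the exception, at 49.6 CPM, lay above 1 chow mouse. The log2 fold change was -0.21 ± 0.07, with an interval of -0.35 to -0.07. Its edgeR adjusted p of 0.05001 was just above the threshold, and 5 of 7 other settings of the test put it below. With each mouse left out in turn, Galr1 was called in 2 of 10 fits, and its edgeR adjusted p reached 0.124.

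The authors' deposited table, which has its own comparison of the diets, called 6 of the 10 receptors, against 7.06% of the 27577 genes with a p-value in it. Those 27577 include genes with too few reads to be tested here. DESeq2 on the same counts here called 15.2% of the 13169 genes to which it gave an adjusted p. In the authors' deposited table Sstr3 was called higher, with a log2 fold change of 0.27 and an adjusted p of 0.000346, and Chrm3, Casr, Glp1r, Gipr and Galr1 were called lower. The adjusted p in the authors' deposited table was 5.58e-07 for Chrm3, 1.24e-05 for Casr, 0.0189 for Glp1r, 0.0243 for Gipr and 0.0419 for Galr1. Ffar1, Gcgr, Adra2a and Gpr119 were not called in the authors' deposited table, with an adjusted p of 0.107, 0.381, 0.398 and 0.795.

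The western diet mouse of cage 2 weighed on the count of receptors called. Without it, 6 of the 10 were called, against 11.8% of all genes in the same fit, with Glp1r, Gipr and Ffar1 added as lower. Chrm3, Casr and Sstr3 were called with every mouse left out in turn. Cage 2 held no other mouse of the series, and the part of cage in this difference was not tested.

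**Figure D4:**
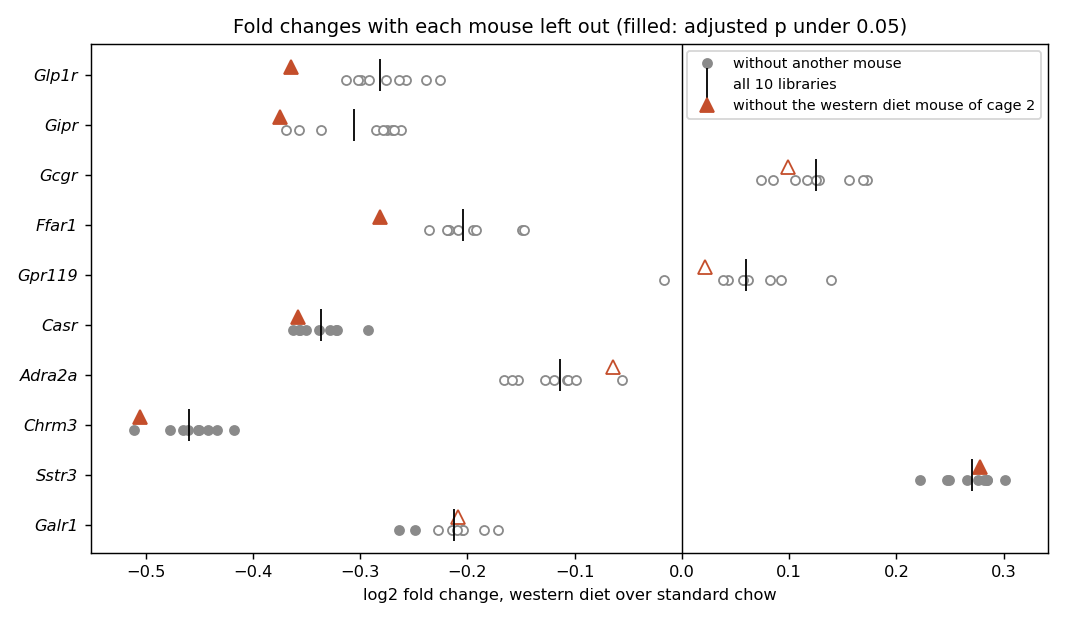
Log2 fold change of each receptor, western diet over standard chow, with each of the 10 mice left out in turn (triangle for the western diet mouse of cage 2, circle for any other, filled where the edgeR adjusted p was under 0.05) and a line for all 10 libraries. Casr, Chrm3 and Sstr3 are filled throughout. Glp1r, Gipr and Ffar1 are filled as triangles and open as circles.

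The genes whose profile over the 10 libraries was most like that of a called receptor were found by the root mean square difference of log2 CPM centred on each gene's mean. For Chrm3 they included Ugt2b34 and Cep83, at 0.0577 and 0.0867 on the log2 scale. For Sstr3 they were Nadk, Mrps7 and Sin3b, at 0.0399, 0.0518 and 0.0545. For Casr they were Nup93, Itpkb and Rbpms, at 0.0563, 0.0573 and 0.0594. Of the genes named here, only Mrps7 was not called between the diets, with a log2 fold change of 0.20 and an edgeR adjusted p of 0.0997. The genes were picked for likeness to called receptors, so calls among them follow largely from that choice.

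The signalling partners of the receptors were described from 13 lists of 221 genes, of which 160 were tested, 3 were called higher and 13 lower. That is 10.0% called, against 10.8% of all genes, and the median log2 fold change was -0.04. An unadjusted p under 0.05 in edgeR, also counted for lists below, was found for 26.9% of all genes. Among 11 tested receptors that couple mainly to Gs, 0 were called higher and 2 lower by edgeR, with the same counts by DESeq2 and limma-voom and 0 higher and 3 lower at an unadjusted p under 0.05. These were Adora2b, an adenosine receptor, at 4.33 ± 0.731 CPM in western diet islets and 7.21 ± 1.64 CPM in chow islets, and Crhr1, a receptor for corticotropin-releasing hormone and urocortin, at 1.26 ± 0.396 CPM in western diet islets and 2.65 ± 0.567 CPM in chow islets. Vipr1, a receptor for VIP and PACAP, averaged 97.9 ± 12.4 CPM in western diet islets and 89.4 ± 2.34 CPM in chow islets and was not called.

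Among 16 tested receptors that couple mainly to Gi, 0 were called higher and 2 lower by edgeR, and 0 higher and 3 lower both by DESeq2 and at an unadjusted p under 0.05 (limma-voom gave 0 and 2). Adora1, the adenosine A1 receptor, was at 28.2 ± 2.74 CPM in western diet islets and 40.4 ± 3.33 CPM in chow islets, a log2 fold change of -0.51 ± 0.07 with an edgeR adjusted p of 0.00053, and its libraries did not overlap. P2ry12, a receptor for ADP, was called lower at 2.89 ± 0.619 CPM in western diet islets and 4.52 ± 0.946 CPM in chow islets. It lost that call without any 1 of the 4 western diet mice of cage 4 or of chow mice 1 and 5, with an edgeR adjusted p of up to 0.106. Galr3, which like Galr1 binds galanin, had a log2 fold change of -0.27 ± 0.09 and an edgeR adjusted p of 0.0502, just above the threshold as for Galr1.

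Among 21 tested receptors that couple mainly to Gq, as do Chrm3 and Ffar1, 1 was called higher and 2 lower, and 4 were higher and 3 lower at an unadjusted p under 0.05. P2ry1, a purine receptor activated by ADP, was at 103, 139, 145, 144 and 119 CPM in western diet mice and 72.8, 88.4, 95.9, 98.6 and 90.5 CPM in chow mice. All western diet libraries of P2ry1 lay above all chow libraries, with a log2 fold change of 0.54 ± 0.11 and an edgeR adjusted p of 0.00905. Gprc6a, an amino acid receptor of the same class C family as Casr, was at 1.89 ± 0.3 CPM in western diet islets and 3.54 ± 0.424 CPM in chow islets, with an edgeR adjusted p of 0.00587. Ffar2, a receptor for short-chain fatty acids, was at 25.5 ± 4.85 CPM in western diet islets and 35.6 ± 3.86 CPM in chow islets, with an edgeR adjusted p of 0.0221 that reached up to 0.0596 without western diet mouse 1 or 5 of cage 4 or chow mouse 1. Gpr142, an amino acid receptor, had a log2 fold change of -0.24 ± 0.08 and was not called at an edgeR adjusted p of 0.0609.

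Of 13 tested orphan and adhesion receptors, Gpr180 was called higher and Adgrl2, Gprc5b and Gprc5c were called lower. Gpr180 stood at 52.8 ± 3.02 CPM in western diet islets and 42.0 ± 2.95 CPM in chow islets. Gprc5b stood at 5.00 ± 0.82 CPM in western diet islets and 7.48 ± 1.49 CPM in chow islets, where the library of chow mouse 3, at 10.1 CPM, stood apart from the others. It lost its call without that mouse or without western diet mouse 2 or 4 of cage 4, with an edgeR adjusted p of up to 0.0674. Gprc5c was called in 3 of the 10 fits with a mouse left out, those without western diet mouse 1 of cage 4, chow mouse 3 or chow mouse 5, and its edgeR adjusted p reached 0.0817 in the others. DESeq2 called 2 of these receptors higher and 3 lower.

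Beyond the receptors, none of 12 G alpha subunits, 9 adenylyl cyclases, 14 cyclic nucleotide phosphodiesterases, 8 genes of protein kinase A and Epac, or 7 ligands and ligand-degrading enzymes was called by edgeR, DESeq2 or limma-voom. At an unadjusted p under 0.05 in edgeR there were 1 of the G alpha subunits (Gnao1, lower), 2 of the cyclases (Adcy1 higher and Adcy2 lower), 1 of the phosphodiesterases (Pde1c, lower), 1 of the kinase A genes (Prkar2a, higher) and 1 of the ligands (Vip, lower). Vip, the transcript of a neuropeptide of the VIP and PACAP family, was at 3.05, 4.27, 1.27, 5.26 and 0.963 CPM in western diet mice and 14.4, 15.6, 0.343, 21.9 and 14.3 CPM in chow mice. All chow mice but mouse 3 lay above every western diet mouse, and the log2 fold change of -2.18 ± 0.79 had an edgeR adjusted p of 0.119. Without chow mouse 3 it was -2.50, with an edgeR adjusted p of 0.0178. The 9 other fits with a mouse left out did not call Vip, with an edgeR adjusted p of up to 0.214. The medians of these 5 lists lay between -0.04 and 0.04 on the log2 scale. Pde1c, a phosphodiesterase activated by calcium and calmodulin, had the smallest p-value of these phosphodiesterases, with a log2 fold change of -0.28 ± 0.10 and an edgeR adjusted p of 0.077. Dpp4, the peptidase that inactivates GLP-1 and GIP, averaged 74.2 ± 9.24 CPM in western diet islets and 79.1 ± 6.89 CPM in chow islets. Of 10 tested beta and gamma subunits, Gng5 was called higher, at 46.8 ± 2.26 CPM in western diet islets and 41.0 ± 1.9 CPM in chow islets. It lost that call without any 1 of the 4 western diet mice of cage 4 or of chow mice 1, 3 and 4, with an edgeR adjusted p of up to 0.102.

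Of 13 genes for phospholipase C, IP3 receptors and protein kinase C, which act after Gq, Itpr3 was called lower. This IP3-gated calcium channel was at 97.2, 108, 109, 111 and 115 CPM in western diet mice and 149, 120, 123, 118 and 172 CPM in chow mice. The diets did not overlap, but 2 chow libraries lay well above the others, and the edgeR adjusted p was 0.0487. Itpr3 lost its call without any 1 of the 5 western diet mice or of chow mice 1 and 3, with an edgeR adjusted p of up to 0.122. Of 15 RGS proteins, which speed the switching off of G alpha subunits, Rgs3 and Rgs12 were called lower by edgeR, and DESeq2 and limma-voom each called 4 lower. Rgs12 lost its call without western diet mouse 1 or 5 of cage 4 or chow mouse 1, with an edgeR adjusted p of up to 0.0854. Rgs3 was at 26.1 ± 1.13 CPM in western diet islets and 35.6 ± 5.39 CPM in chow islets. Rgs4, at 43.3 ± 6.57 CPM in western diet islets and 66.8 ± 17.95 CPM in chow islets, did not overlap between the diets but was not called at an edgeR adjusted p of 0.0743. Of 11 receptor kinases, arrestins and RAMPs, Grk5, a kinase that phosphorylates active receptors, was called lower, at 38.4 ± 3.85 CPM in western diet islets and 52.7 ± 7.84 CPM in chow islets, with an edgeR adjusted p of 0.00905.

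**Figure D5:**
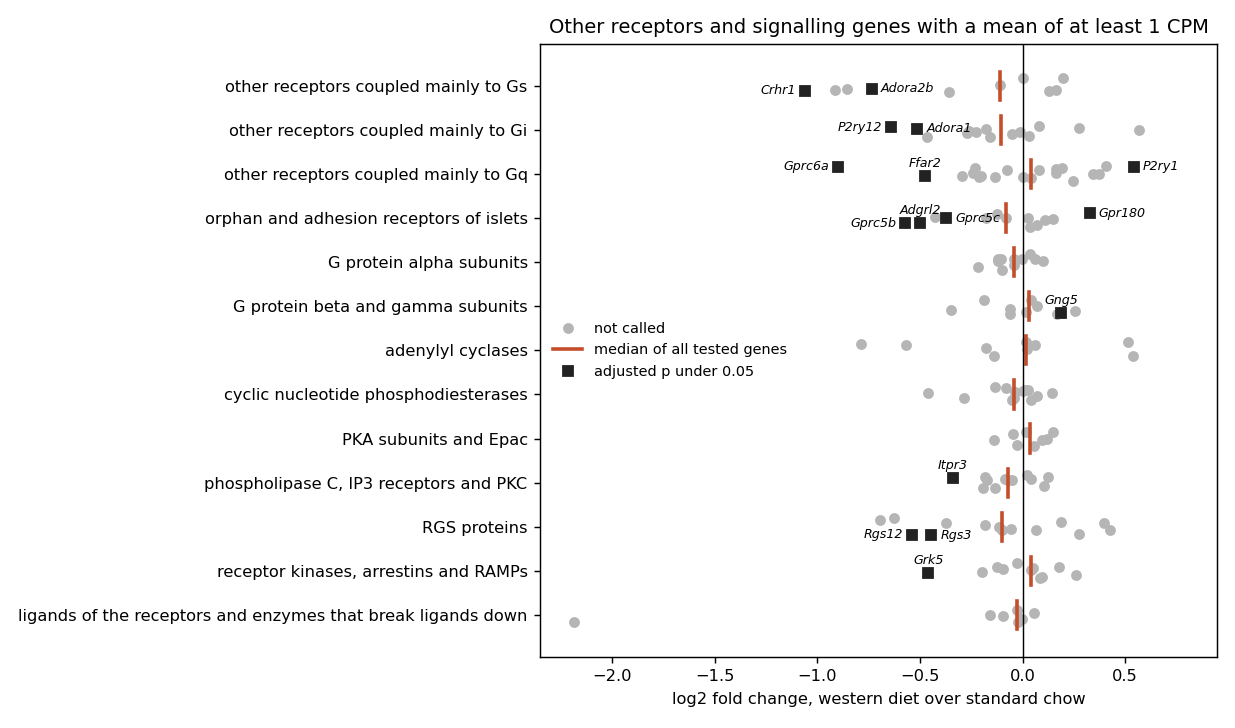
Log2 fold change, western diet over standard chow, of genes of the 13 lists of other receptors and signalling genes, shown where the mean reached 1 CPM, with squares and names for called genes and a line at the median of all tested genes of each list. Called genes lie mostly left of 0, with 13 lower and 3 higher, and no G alpha subunit, adenylyl cyclase, phosphodiesterase or protein kinase A gene is called.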

How the data were processed

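Per the labels' protocols, islet RNA was made into libraries with a NEBNext Ultra RNA kit. The submitters' processing notes name STAR 2.5, HTSeq 2, DESeq2, mm10 and GRCm38. The authors deposited 1 table with whole-number read counts per gene, FPKM per library, and log2 fold changes and p-values of their own comparison, per the file headers. A further 10 columns of normalized values were not used.

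The diets were compared on the counts with edgeR 4.0.16 (R 4.3.3): filterByExpr (minimum count 10), TMM factors, a robust quasi-likelihood fit with no covariate, and Benjamini-Hochberg adjustment over 15104 genes, called under 0.05. Total counts were 16532518 to 23902681 per library, and between any 2 libraries at most 1.79% of genes had equal counts. FPKM were used only for the order of levels. Promoter windows came from RefSeq (GRCm38.p6) and gene models from GENCODE M21.

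The members and lists were chosen with earlier results of these data known. Named genes are all members, the 4 genes of smallest p in each list (means of at least 1 CPM first), and the 3 genes most like each called member, of which 1 is not reported here. Of the listed genes, 10 had no matching row and were not analysed here. The alternatives used upper quartile or RLE factors, no filter, a minimum of 5 CPM, DESeq2 1.42.0, limma 3.58.1 with voom, mouse number as a block, and each mouse left out.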

Additional observations from a re-analysis of the deposited data

Results flagged for a closer look

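In groups of 5 libraries, a library was picked out when its gap to the nearest other exceeded 0.71 of the group's range (Dixon's criterion), which chance gives in about 1 in 20 groups. This was found in 1 of 20 member groups and 4 of 104 groups of the named pathway genes. Ffar1 was highest in chow mouse 2, at 197 CPM, with the other chow mice at 159 to 168 CPM. Adcy7, an adenylyl cyclase, was highest in western diet mouse 1 of cage 4, at 4.18 CPM, with the others at 1.09 to 1.88 CPM. Gng7, a gamma subunit, was lowest in chow mouse 4, at 1.67 CPM, with the others at 2.96 to 3.26 CPM. Gprc5b was highest in chow mouse 3, at 10.1 CPM, with the others at 6.44 to 7.21 CPM. Prkar2a, a regulatory subunit of protein kinase A, was highest in western diet mouse 4 of cage 4, at 61.7 CPM, with the others at 50.9 to 53.3 CPM. No library was picked out for more than 1 of these genes.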

How the results depend on the processing

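Chrm3, Sstr3 and Casr kept their direction and their call under all 17 alternatives. The 3 receptors called became 4 with RLE factors, upper quartile factors, no filter, limma-voom or mouse number as a block. Among all genes, these settings called 1596, 1597, 1572, 1477 and 841, in that order. The receptors called became 5 with a minimum of 5 CPM, 6 with DESeq2, and 3 to 6 with a mouse left out. Over all genes, edgeR with all 10 libraries called 10.8%, DESeq2 15.2%, and edgeR without the western diet mouse of cage 2 11.8%. The minimum of 5 CPM called 1633 genes, against 1627 without it, and its share of the genes tested was not worked out. Glp1r passed at -0.30 (5 CPM), -0.28 (DESeq2) and -0.29 (voom), and ranged from -0.36 to -0.23 with a mouse left out. Gipr passed at -0.31 (DESeq2) and ranged from -0.37 to -0.26, and Ffar1 ranged from -0.28 to -0.15. Galr1 passed at -0.22 (RLE), -0.22 (upper quartile), -0.21 (no filter), -0.23 (5 CPM) and -0.21 (DESeq2), and ranged from -0.26 to -0.17. Gpr119 reversed to -0.0169 without western diet mouse 2 of cage 4, and ranged up to 0.14. The cause was not tested.

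Mouse numbers do not pair the mice, which shared no cage across diets, and deviations of same-numbered mice correlated at -0.13 to 0.05. With the number as a replicate block, 841 of all genes were called, against 1627 without it, and Gipr passed at -0.30. With a mouse left out, 938 to 1813 genes were called. Western diet mouse 5 or mouse 4 of cage 4 and chow mouse 1 or 3 moved this count most: 1055 without western diet mouse 5 of cage 4, 985 without mouse 4 of cage 4, 938 without chow mouse 1 and 1050 without chow mouse 3. Over the alternatives, the adjusted p of Glp1r ranged from 0.00328 to 0.173, of Gipr from 0.0215 to 0.227, of Ffar1 from 0.0145 to 0.282 and of Galr1 from 0.0166 to 0.124. The lowest count of a member in a library was 229.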
